A study of Drosophila melanogaster with 9 samples.

Results

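Tetraspanins are small proteins that cross the cell membrane several times and gather integrins, proteases and other membrane proteins into local assemblies. Through these partners they act in cell adhesion, in the sorting of membrane proteins and in signaling between neighboring cells. In Drosophila many members of the family lie side by side in a gene cluster in region 42E of chromosome arm 2R, while the others are dispersed over the genome. A deposited gene was taken as a member when its symbol was Tsp followed by a number and a letter code of its cytological position, or when it was *lbm* (*late bloomer*), a member of the 42E cluster with a name of its own. The gene named *Tsp* alone is a thrombospondin and was not taken. The rule found 35 of the 17490 deposited genes. Of these, 18 lie in the 42E cluster, 3 are of the TspanC8 type (*Tsp3A*, *Tsp26A* and *Tsp86D*) and 14 are other dispersed members.

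Hemocytes are the blood cells of the fly, most of them macrophage-like plasmatocytes, and the lymph gland is the organ in which a further set of them forms in the larva. The family was described in adult hemocytes and in both larval populations, to see how adult blood cells differ from the larval ones. All animals were w1118, which carry a mutation of the *white* gene, without any transgene or treatment. Adult hemocytes (AD) were flushed out of females 4 to 5 days old by perfusion with PBS, larval peripheral hemocytes (PH) were released from wandering L3 larvae by opening the cuticle, and larval lymph glands (LG) were the dissected anterior lobes of L3 larvae. Each group had 3 replicates, described by the authors as independent biological replicates, each made from many pooled animals. No cell type was sorted, so a value is an average over the cells of a bleed or of a gland, and a smaller number of cells of a given type cannot be told apart from less RNA per cell.

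Levels are RPKM, that is reads per kilobase of exon corrected for library size. Whole reads were recovered from the values, and amounted to 2920664 to 3201825 reads in AD samples, 4999411 to 6534561 in PH samples and 2745573 to 6779942 in LG samples, of which 43.0 to 61.5% over the 9 samples fell on rRNA genes. Hemocyte RNA was present in every sample, since the 12 plasmatocyte markers summed to 6159 to 7107 RPKM in AD samples, 2309.7 to 3635 RPKM in PH samples and 2751 to 2812 RPKM in LG samples, with none at 0 in any group. The 5 prohemocyte markers summed to 111 to 122 RPKM in AD samples, 175 to 211 RPKM in PH samples and 1106 to 1842 RPKM in LG samples. By microscopy, the paper found that nearly all cells flushed from adults of this age carried a hemocyte marker. It described the larval peripheral bleeds as mostly hemocytes, without visible fat body cells. Markers of other tissues were nevertheless present in the RNA. The 5 adult fat body markers summed to 7977 to 12399 RPKM in AD, against 39.6 to 43.0 RPKM in PH and 9.05 to 47.3 RPKM in LG, and the 6 larval fat body markers to 9.04 to 18.4 RPKM in AD, against 1429.5 to 1996 RPKM in PH and 108 to 175 RPKM in LG. The 10 muscle markers found summed to 328 to 373 RPKM in AD, against 28.7 to 56.5 RPKM in PH and 216 to 234 RPKM in LG. LG replicate 1 stood apart, with 167 RPKM over 5 ring gland markers as compared to 5.94 and 1.74 RPKM in the other LG samples. The 4 markers of crystal cells, a further hemocyte type, summed to 1543 to 1656 RPKM in AD, 1507 to 2186 RPKM in PH and 415 to 1027 RPKM in LG. Within LG their sum was also highest in replicate 1 (1027 RPKM, against 457 and 415 RPKM in LG replicates 2 and 3). The part of these other tissues and of crystal cells in the levels below was not tested.

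Most of the family was not expressed in any given group. With RPKM above 1 in all 3 samples as the threshold, 13 of 35 members were expressed in AD (37.1%), whereas 9 were in PH (25.7%) and 8 in LG (22.9%), as compared to 38.9%, 35.9% and 35.6% of all deposited genes. In AD, 7 of the expressed members lay in the 42E cluster and 6 outside it, in PH 4 and 5, and in LG 3 and 5. The 6 members expressed in all 3 groups were *Tsp42Ee*, *Tsp42El*, *Tsp86D*, *Tsp96F*, *Tsp97E* and *Tsp3A*. A further 5 passed the threshold in AD only (*Tsp26A*, *Tsp42Ef*, *Tsp42Eg*, *Tsp42Eh* and *Tsp42Ei*), *lbm* and *Tsp2A* in PH only, and *Tsp42Ek* in LG only. *Tsp42Ed* passed it in AD and PH, and *Tsp66E* in AD and LG. The remaining 19 members were expressed in no group.

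The RPKM of all 35 members summed to 365, 276 and 424 in AD, 419, 396 and 474 in PH, and 97.8, 80.6 and 70.5 in LG. The AD and PH sums overlapped, and every LG sum was below every AD and PH sum. The composition of these sums differed between the groups in a way that scaling each sample by a single factor does not change. *Tsp42Ee* made up 40.2% ± 1.92 of the family's RPKM in AD samples, 69.2% ± 2.98 in PH samples and 21.3% ± 7.34 in LG samples (SD, n = 3 each). *Tsp42Ed* made up 24.8% ± 3.49 in AD, as compared to 2.68% ± 0.30 in PH and 2.93% ± 2.18 in LG, and *Tsp66E* 14.4% ± 4.11 in AD, against 0.26% ± 0.06 in PH and 6.55% ± 2.16 in LG (SD, n = 3 each). In AD these 3 genes thus held most of the family's RPKM, in PH a single gene did, and in LG the sum was spread over more members. *Tsp96F* made up 2.57% ± 0.83 in AD, against 10.8% ± 1.59 in PH and 19.5% ± 3.82 in LG, and *Tsp86D* made up 3.03% ± 0.80 in AD, against 4.36% ± 0.71 in PH and 10.9% ± 3.44 in LG (SD, n = 3 each).

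**Figure D1:**
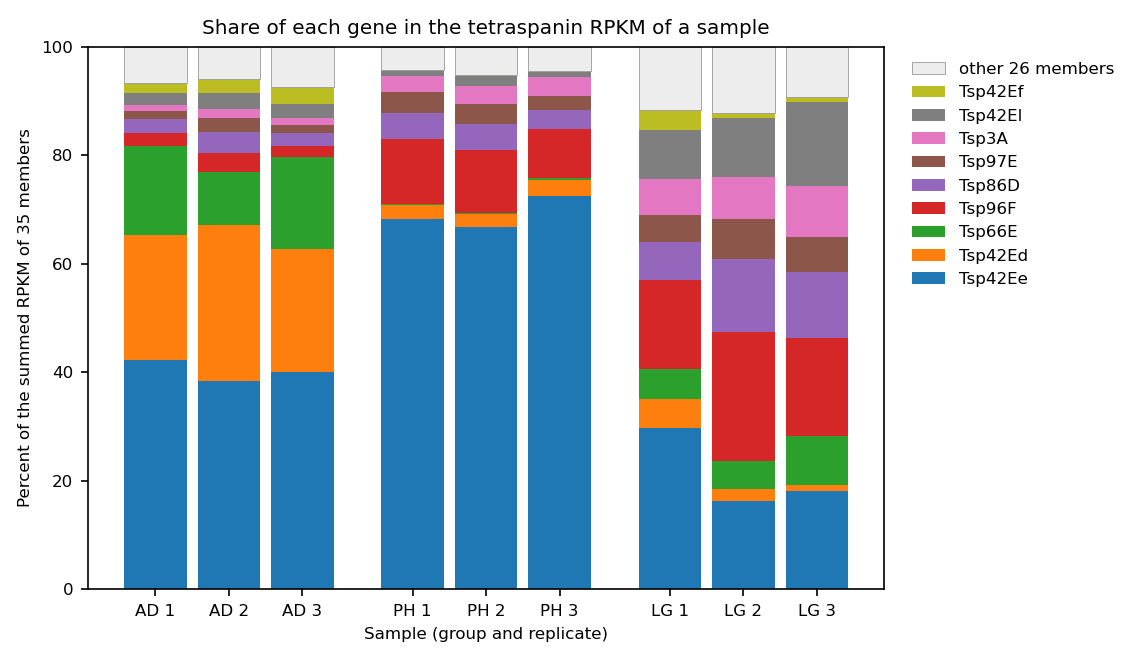
Percent of the summed RPKM of the 35 tetraspanin genes held by each of 9 genes and by the rest together, as a stacked bar for each of the 3 samples of AD, PH and LG. *Tsp42Ee* holds 66.8 to 72.5% in the PH samples, as compared to 16.2 to 29.8% in the LG samples, and *Tsp42Ed* holds 22.5 to 28.9% in the AD samples.

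Pairs of groups were compared with limma on log2(RPKM + 1). The test covered genes that exceeded 1 RPKM in 3 or more of the 6 samples, and calls required an adjusted p-value below 0.01 with a change of more than 1 on the log2 scale. Fold changes below are on this log2(RPKM + 1) scale with the standard error, which understates the change of genes near or below 1 RPKM. Between AD and PH, 15 members were tested, of which 6 were called higher in AD, where 23.0% of all tested genes were, and 5 lower, where 13.9% were. In AD against LG, 16 were tested, with 7 called higher in AD against a background of 20.0% and 1 lower against 10.4%. Between PH and LG, 11 were tested, with 5 called higher in PH against a background of 7.63% and 1 lower against 6.57%. The median change of the tested members was 0.66, 0.92 and 1.35 in these comparisons, as compared to 0.05, 0.07 and 0.01 over all tested genes. Members that passed the filter only through the group where they were high had to differ, so these counts and medians describe the tested members and not the family. In all, 14 of the 35 members were called in at least 1 comparison. Of the 25 calls, those of *Tsp42Ed*, *Tsp42Ef*, *Tsp66E* and *Tsp96F* in AD against PH and of *Tsp42Ed* in AD against LG held under every alternative processing run for them, and each other call was lost under at least 1. Each group takes part in more than 1 comparison, so the comparisons share samples.

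**Figure D2:**
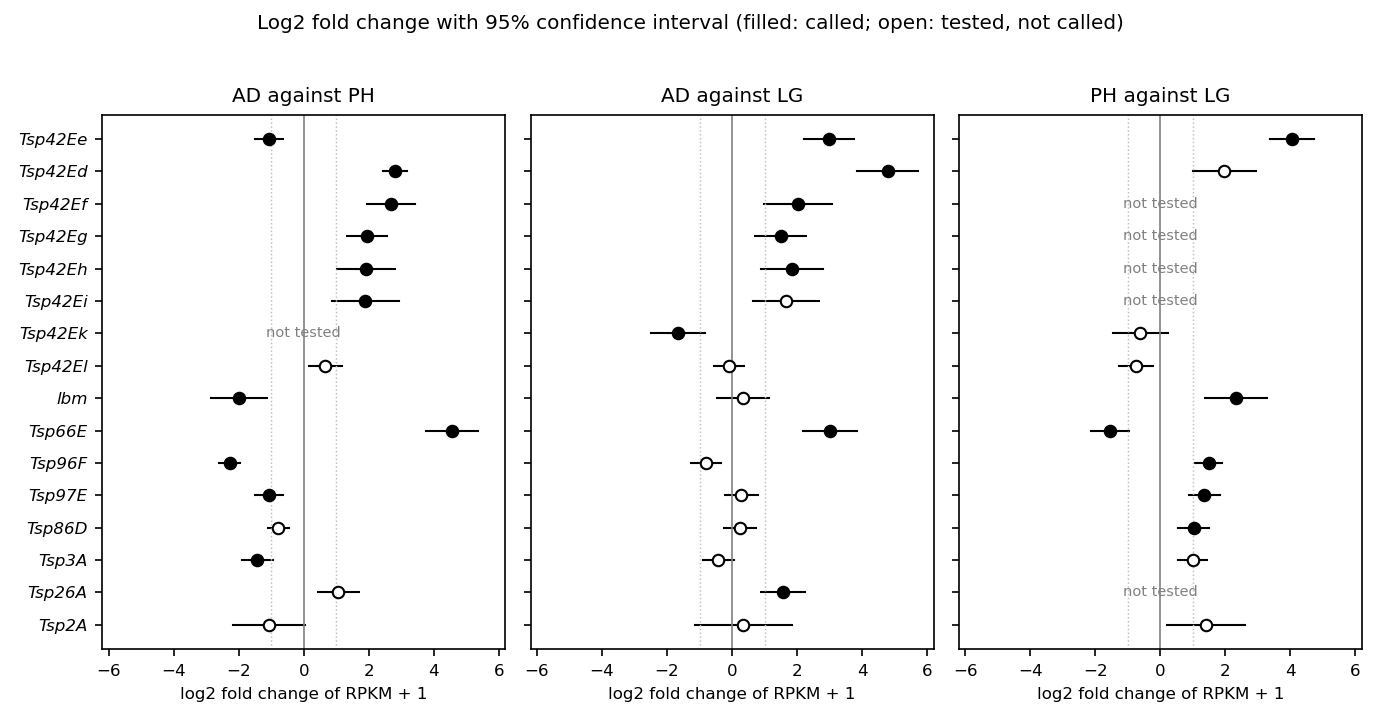
Log2 fold change of RPKM + 1 (horizontal axis) with its 95% confidence interval for 16 tetraspanin genes (rows) in AD against PH, AD against LG and PH against LG (panels). Filled points were called and open points were tested and not called; the dotted lines mark a change of 1. *Tsp66E* (4.56) has the largest change of these genes between AD and PH, *Tsp42Ed* (4.78) between AD and LG, and *Tsp42Ee* (4.05) between PH and LG.

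The 42E cluster spanned 73.4 kb, from base 6992676 to base 7066113 of chromosome arm 2R in the BDGP6 annotation, which uses dm6 coordinates. Its 18 members follow each other in the order *Tsp42Ea* to *Tsp42El*, then *lbm*, *Tsp42En*, *Tsp42Ep*, *Tsp42Eo*, *Tsp42Eq* and *Tsp42Er*. *Tsp42Ee* (FBgn0029506, bases 7012254 to 7018362, plus strand) was the most abundant tetraspanin per length in every AD and PH sample. In LG it had the highest mean of the members, which rested on LG replicate 1, and *Tsp96F* was above it in LG replicates 2 and 3. Its level was 154, 106 and 170.2 RPKM in AD, 286, 264 and 344 RPKM in PH, and 29.1, 13.1 and 12.7 RPKM in LG. No pair of groups overlapped, with PH highest and LG lowest. By mean RPKM it ranked 304 among the 6802 genes expressed in AD, 168 among 6282 in PH and 1666 among 6220 in LG. It was 2.98 ± 0.33 higher in AD than in LG (limma, adjusted p = 0.00023) and 4.05 ± 0.30 higher in PH than in LG (adjusted p = 0.00013), calls that held when any single sample was left out. AD was lower than PH by less, with a change of -1.07 ± 0.19 (adjusted p = 0.0012), and the call fell under the threshold of 1 without AD replicate 2 (-0.87) or PH replicate 3 (-0.96), or with quantile normalization, scaling to total recovered reads or array weights. The adjusted p passed 0.01 without a filter (0.028) and in the joint fit of the 9 samples (0.011). Over all 18 alternatives its change was -1.21 to -0.86.

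The neighboring *Tsp42Ed* (FBgn0029507, bases 7009498 to 7011739) lies on the opposite strand and does not overlap *Tsp42Ee*. Its level was 84.4, 79.8 and 95.7 RPKM in AD, 11.1, 9.46 and 14.2 RPKM in PH, and 5.24, 1.85 and 0.80 RPKM in LG. Here AD was highest in every sample, and no pair of groups overlapped. *Tsp42Ed* was 2.81 ± 0.16 higher in AD than in PH (limma, adjusted p = 2.4e-06) and 4.78 ± 0.41 higher in AD than in LG (adjusted p = 6.3e-05), and both calls held when any single sample was left out. Between PH and LG the change of 1.97 ± 0.43 missed the call (adjusted p = 0.0102), and was called in 7 of the 18 alternatives. Among them was the fit without LG replicate 1, the sample with ring gland RNA and the highest crystal cell sum in LG (2.46, adjusted p = 0.0018).

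Since these genes had different orders of the groups, their ratio within a sample, which no scaling of a sample by a single factor changes, was also computed, a choice made after their values were seen. The ratio of *Tsp42Ed* to *Tsp42Ee* was 0.548, 0.752 and 0.562 in AD, 0.0388, 0.0358 and 0.0412 in PH, and 0.180, 0.141 and 0.0628 in LG. AD samples thus carried more than 1 *Tsp42Ed* per 2 *Tsp42Ee* by RPKM, and the PH samples had the lowest ratios, with no overlap between any groups.

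**Figure D3:**
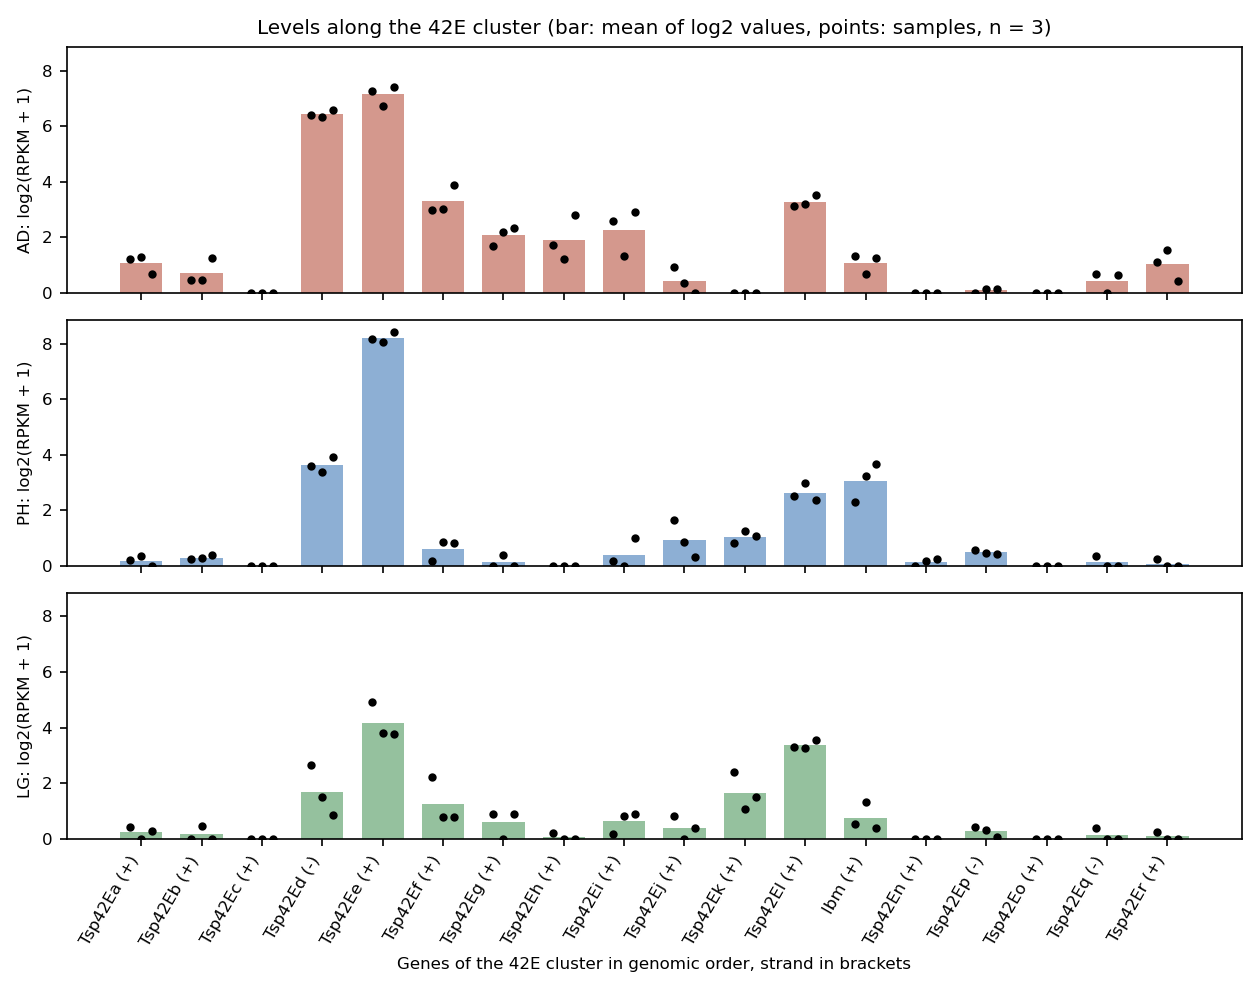
Level of the 18 genes of the 42E cluster as log2(RPKM + 1) (vertical axis), in genomic order with the strand in brackets (horizontal axis), in AD, PH and LG (panels from top to bottom). Bars are means of the log2 values and points are the 3 samples of a group. *Tsp42Ef* to *Tsp42Ei* are above 1 RPKM in all AD samples and below 1 RPKM in all PH samples.

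Downstream of *Tsp42Ee*, the 4 consecutive genes *Tsp42Ef*, *Tsp42Eg*, *Tsp42Eh* and *Tsp42Ei* (bases 7025010 to 7036949, all on the plus strand) were low in AD and lower still in the larval groups. *Tsp42Ef* (FBgn0033127) was at 6.88, 7.12 and 13.7 RPKM in AD, 0.12, 0.81 and 0.77 RPKM in PH, and 3.61, 0.74 and 0.74 RPKM in LG. *Tsp42Eg* (FBgn0033128) was at 2.23, 3.62 and 4.07 RPKM in AD, 0, 0.31 and 0 RPKM in PH, and 0.85, 0 and 0.84 RPKM in LG. AD lay above both larval groups in every sample for both genes, and LG replicate 1 stood above the other LG samples for *Tsp42Ef*. *Tsp42Eh* (FBgn0033129) was at 2.30, 1.31 and 5.98 RPKM in AD, at 0 in all PH samples, and at 0.17, 0 and 0 RPKM in LG. *Tsp42Ei* (FBgn0033130) was at 5.08, 1.52 and 6.49 RPKM in AD, 0.12, 0 and 0.996 RPKM in PH, and 0.13, 0.76 and 0.85 RPKM in LG. For these genes too AD did not overlap with either larval group, with AD replicate 2 lowest in AD.

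All 4 genes were called higher in AD than in PH, with changes of 2.68 ± 0.32 for *Tsp42Ef* (limma, adjusted p = 0.00015), 1.95 ± 0.27 for *Tsp42Eg* (adjusted p = 0.00030), 1.91 ± 0.39 for *Tsp42Eh* (adjusted p = 0.0029) and 1.89 ± 0.45 for *Tsp42Ei* (adjusted p = 0.0062). The calls of *Tsp42Ef* and *Tsp42Eg* held when any single sample was left out. The call of *Tsp42Eh* was lost without PH replicate 2 or PH replicate 3 (adjusted p = 0.012 for each), and that of *Tsp42Ei* without AD replicate 1, AD replicate 3, PH replicate 1 or PH replicate 2 (adjusted p = 0.021 to 0.028). These genes rested on few reads, namely 118, 37, 31 and 54 in AD, as compared to 11, 2, 0 and 6 in PH and 41, 15, 1 and 14 in LG, summed over the 3 samples. A count of 0 allows up to 3 reads in a sample, at most 0.77 RPKM of *Tsp42Eh* in the PH samples. Its mean level in AD was at least 4.14-fold higher than this limit, and at least 2.34-fold without AD replicate 3.

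As compared to LG, *Tsp42Ef* (2.03 ± 0.45, adjusted p = 0.0067), *Tsp42Eg* (1.49 ± 0.33, adjusted p = 0.0074) and *Tsp42Eh* (1.84 ± 0.41, adjusted p = 0.0070) were called higher in AD with limma, and *Tsp42Ei* was not (1.66 ± 0.44, adjusted p = 0.015). None of these calls held throughout. *Tsp42Ef* was called only without LG replicate 1 among the fits that left out a sample (2.495, adjusted p = 0.0013), *Tsp42Eg* in none of them (adjusted p = 0.011 to 0.029), and *Tsp42Eh* was lost when AD replicate 1 or any single LG sample was left out (adjusted p = 0.017 to 0.028). *Tsp42Ei* was called without AD replicate 2 (2.13, adjusted p = 0.0033). Between PH and LG these 4 genes were too low to be tested.

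Further along the cluster the pattern changed. *Tsp42Ek* (FBgn0033133, bases 7042656 to 7044710) had no read in AD, and was at 0.79, 1.36 and 1.08 RPKM in PH and 4.32, 1.10 and 1.84 RPKM in LG. The PH and LG samples overlapped, and LG replicate 1 stood highest. It fell in AD as compared to LG, by 1.66 ± 0.36 on the log2 scale (limma, adjusted p = 0.0063), and its mean level in LG was at least 2.93-fold higher than the 3 reads that a count of 0 allows in an AD sample (at most 0.83 RPKM), or at least 1.78-fold without LG replicate 1. The call was lost when any single AD sample, LG replicate 1 or LG replicate 3 was left out (adjusted p = 0.013 to 0.022). It was not tested between AD and PH, and did not pass the test between PH and LG (-0.62 ± 0.37, adjusted p = 0.24). *Tsp42Ek* shares 107 bases of exon with *Tsp42Ej* on the same strand, and reads there cannot be assigned to either gene.

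The adjacent *Tsp42El* (FBgn0033134, bases 7045769 to 7048538) was called in no comparison. Its level was 7.80, 8.10 and 10.5 RPKM in AD, 4.74, 6.84 and 4.16 RPKM in PH, and 8.84, 8.70 and 10.8 RPKM in LG. AD and LG overlapped, with PH below both in every sample. The changes were 0.66 ± 0.22 in AD against PH (limma, adjusted p = 0.031), -0.76 ± 0.23 in PH against LG (adjusted p = 0.035) and -0.10 ± 0.20 in AD against LG (95% interval -0.56 to 0.36, adjusted p = 0.71).

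*lbm* (FBgn0016032, bases 7049238 to 7051964), which acts on embryonic motor axons in the formation of neuromuscular synapses, was the cluster gene expressed in PH only. It was at 1.51, 0.60 and 1.38 RPKM in AD, 3.87, 8.44 and 11.8 RPKM in PH, and 0.46, 1.503 and 0.30 RPKM in LG. PH lay above both other groups in every sample, while AD and LG overlapped. *lbm* was lower in AD than in PH (-1.98 ± 0.37, limma, adjusted p = 0.0019) and higher in PH than in LG (2.32 ± 0.41, adjusted p = 0.0045), and did not pass the test between AD and LG (0.34 ± 0.34, 95% interval -0.45 to 1.12, adjusted p = 0.45). The first call was lost without AD replicate 2 (adjusted p = 0.011), and the call between PH and LG without PH replicate 2 or 3 or LG replicate 1 or 3 (adjusted p = 0.014 to 0.023). The 7 neuron markers summed to 182 to 214 RPKM in AD, against 17.0 to 20.8 RPKM in PH and 34.1 to 50.6 RPKM in LG. Most of these sums came from *Syx1A* and, in AD, *cpx*. *elav* was at 4.51 to 6.40 RPKM in AD, against 0.41 to 1.10 RPKM in PH and 0.15 to 1.24 RPKM in LG, and *nSyb*, *Syt1*, *brp* and *para* reached at most 1.32 RPKM in any sample. Of these, *Syt1* was highest in PH, as *lbm* was. It was at 0.035, 0 and 0 RPKM in AD, 0.65, 0.63 and 0.60 RPKM in PH, and 0.195, 0.035 and 0.023 RPKM in LG. The part of neuron RNA in the level of *lbm* was not tested.

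Outside the cluster, *Tsp66E* (FBgn0035936, chromosome arm 3L, bases 8912499 to 8932065) had the largest change between AD and PH of the tested members. Its level was 60.1, 26.8 and 72.6 RPKM in AD, 1.01, 0.86 and 1.56 RPKM in PH, and 5.39, 4.11 and 6.37 RPKM in LG. No pair of groups overlapped, and AD replicate 2, which was also lowest in AD for *Tsp42Ee* and *Tsp42Ei*, was the lowest AD sample. *Tsp66E* was 4.56 ± 0.35 higher in AD than in PH (limma, adjusted p = 9.9e-06) and 3.01 ± 0.36 higher in AD than in LG (adjusted p = 0.00034), calls that held when any single sample was left out. It was also lower in PH than in LG (-1.55 ± 0.26, adjusted p = 0.0033), a call lost without PH replicate 1 or 2 or LG replicate 1 or 3 (adjusted p = 0.011 to 0.019). AD replicate 2 had the highest sum of adult fat body markers (12399 RPKM, against 10821 and 7977 RPKM in AD replicates 1 and 3). Most of this sum came from *Yp1*, *Yp2* and *Yp3*, each highest in AD replicate 2. *apolpp* (676, 521 and 474 RPKM in AD replicates 1, 2 and 3) and *Lpin* (24.5, 23.2 and 18.3 RPKM) were instead highest in AD replicate 1. All of these markers were lowest in AD replicate 3, where *Tsp66E* was highest. Over the groups the adult fat body markers (5 of 5 called higher in AD than in PH, and 5 of 5 than in LG) were highest in AD, as were *Tsp66E*, *Tsp42Ed* and the run *Tsp42Ef* to *Tsp42Ei*. The summed muscle markers were highest in AD too, with 8 of 10 called higher in AD than in PH, and 4 of 10 higher and 1 lower (*Act57B*) in AD than in LG. Between PH and LG, 9 of 9 tested muscle markers were called lower in PH, as was *Tsp66E*, while *Tsp42Ed* was not called. The muscle sum within AD was highest in replicate 2 (373 RPKM, against 360 and 328 RPKM in AD replicates 1 and 3), but its markers did not share this order. *Act57B*, *Act87E*, *Tm2*, *Mlp60A* and *Prm* were highest in AD replicate 2, whereas *Mhc* and *Act88F* were lowest there, as *Tsp66E* was. *Mhc*, *bt* and *sls* were highest in AD replicate 3, and *up* and *Act88F* in AD replicate 1. The summed neuron markers given above were highest in AD as well, and the 3 tested were all called higher in AD than in PH and than in LG. The other neuron markers were too low to be tested in these comparisons and did not have their highest means in AD. *Syt1* was highest in PH. The means of *nSyb*, *brp* and *para* were highest in LG and rested on LG replicate 1. There *nSyb* was at 1.32 RPKM, against 0 in LG replicates 2 and 3, and *brp* and *para* were at 0.13 RPKM. In AD *nSyb* was at 0.57, 0.08 and 0.07 RPKM. The part of these tissues in the levels of these genes was not tested.

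*Tsp96F* (FBgn0027865, chromosome arm 3R, bases 25872900 to 25881427) ran the other way. It was at 8.22, 9.70 and 8.23 RPKM in AD, 49.9, 45.5 and 42.5 RPKM in PH, and 16.1, 19.2 and 12.8 RPKM in LG. The groups did not overlap, with PH highest and AD lowest. *Tsp96F* was lower in AD than in PH (-2.27 ± 0.14, limma, adjusted p = 3.0e-06) and higher in PH than in LG (1.48 ± 0.18, adjusted p = 0.0011), and both calls held when any single sample was left out. In AD against LG the change was -0.79 ± 0.20 and was not called (adjusted p = 0.012).

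*Tsp97E* (FBgn0039465, chromosome arm 3R, bases 26961064 to 26964817) was at 5.40, 7.28 and 6.537 RPKM in AD, 16.8, 14.8 and 12.1 RPKM in PH, and 4.77, 6.01 and 4.45 RPKM in LG. AD and LG overlapped below PH. It was lower in AD than in PH (-1.07 ± 0.19, limma, adjusted p = 0.0013) and higher in PH than in LG (1.35 ± 0.20, adjusted p = 0.0023). The first change fell under the threshold of 1 without AD replicate 1 or PH replicate 1 (-0.97 for each), and the call between PH and LG was lost without PH replicate 1 or 2 or LG replicate 3 (adjusted p = 0.013 to 0.015). As to AD against LG, the change was 0.29 ± 0.22 (95% interval -0.21 to 0.79, adjusted p = 0.31).

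The larval fat body markers were higher in PH than in LG (6 of 6) and lower in AD than in PH (6 of 6), which is also the direction of *Tsp42Ee*, *Tsp96F*, *Tsp97E* and *lbm* in these comparisons. Between AD and LG, all 5 of these markers that were tested were called lower in AD, whereas *Tsp42Ee* was called higher in AD (2.98 ± 0.33). *Tsp96F*, *Tsp97E* and *lbm* were not called there. Within PH, the sum of the larval fat body markers was highest in replicate 1 (1996 RPKM) and lowest in replicate 3 (1429.5 RPKM), an order shared by *Fbp1* and *Lsp1beta*. *Lsp1alpha*, *Lsp1gamma* and *Fbp2* were instead lowest in replicate 1 and highest in replicate 3, and *Lsp2* was highest in replicate 2. *Tsp96F* and *Tsp97E*, as well as *Tsp86D* described below, were highest in PH replicate 1 and lowest in PH replicate 3, while *Tsp42Ee* and *lbm* were highest in PH replicate 3. The 5 epidermis markers also had their highest sums in PH, with 6.81 to 18.1 RPKM in AD, 574 to 924 RPKM in PH and 17.6 to 126 RPKM in LG. Nearly all of the PH sums came from *Cpr49Ac*, the only one of these markers called lower in AD than in PH, while 2 were called higher in AD, of which *Cpr65Au* was at 0 in all PH samples. The part of fat body and epidermis RNA in these levels was not tested.

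**Figure D4:**
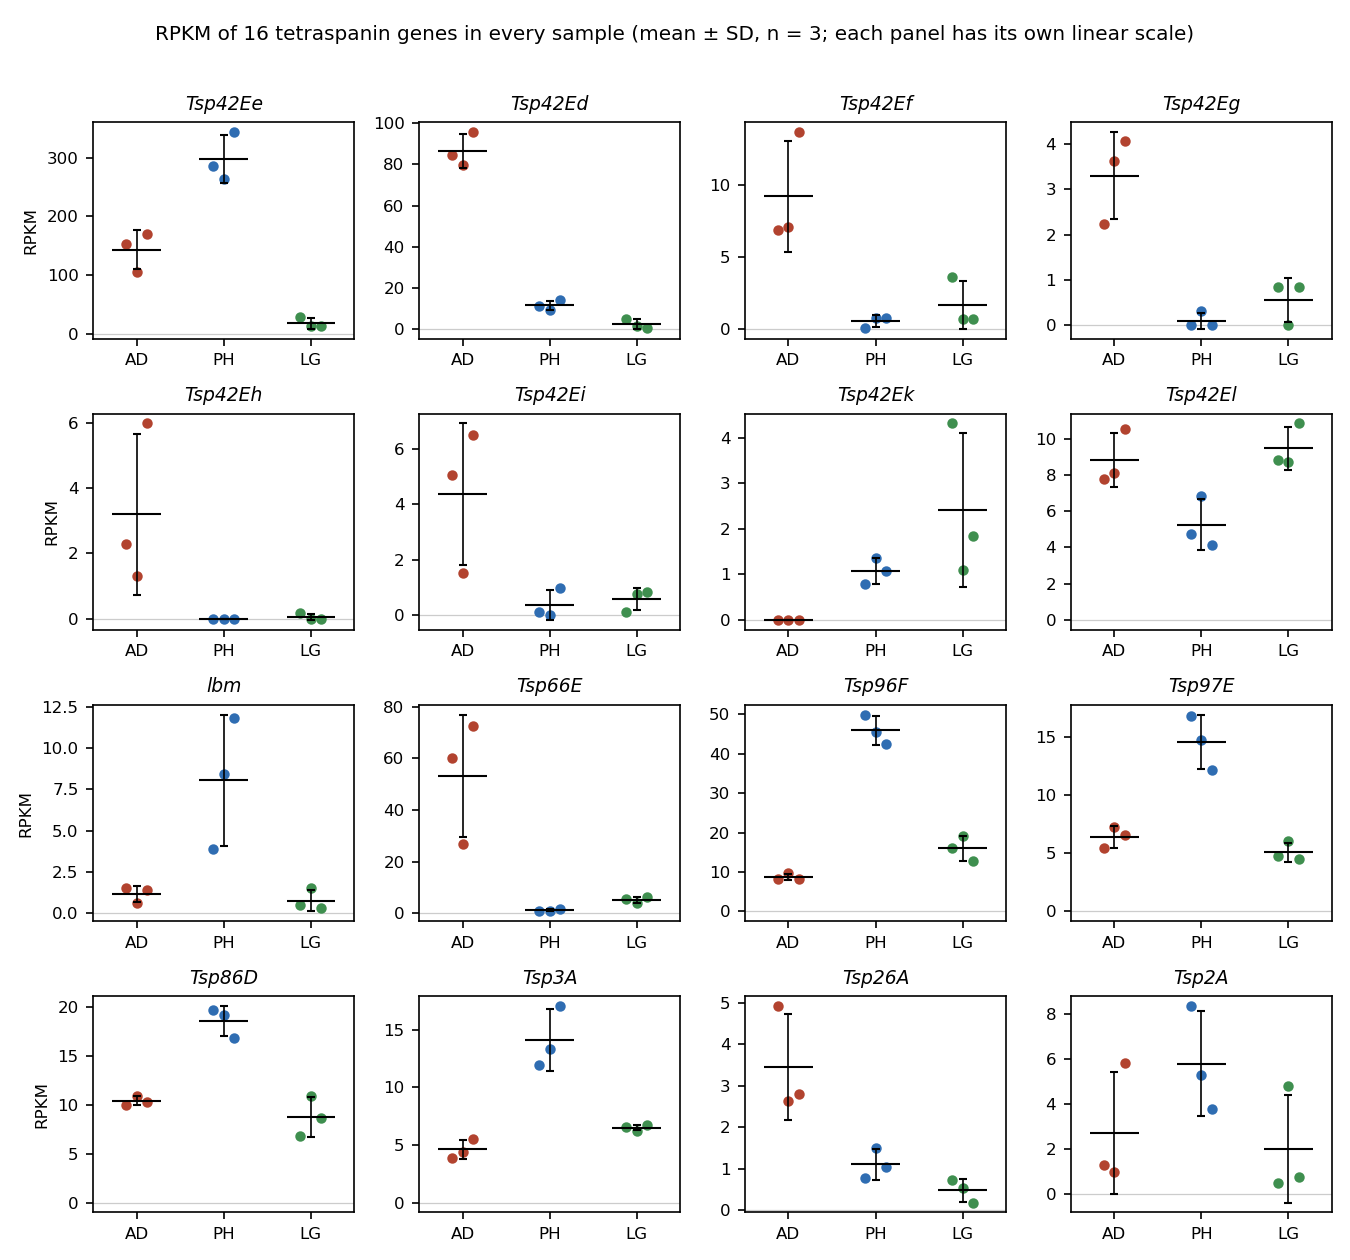
RPKM (vertical axis, linear, with its own scale in each panel) of 16 tetraspanin genes in the 3 samples of AD, PH and LG. Points are samples and bars give the mean ± SD (n = 3 each). *Tsp42Ed* (86.6 ± 8.17 RPKM) and *Tsp66E* (53.2 ± 23.7 RPKM) are highest in AD, and *Tsp96F* (46.0 ± 3.73 RPKM) and *Tsp42Ee* (298 ± 41.0 RPKM) in PH.

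The TspanC8 members bind the metalloprotease Kuzbanian, the homologue of mammalian ADAM10, help to bring it to the cell surface and in this way act in Notch signaling. *Tsp3A* (FBgn0040334, chromosome X, bases 2617758 to 2619738) was at 3.87, 4.41 and 5.55 RPKM in AD, 11.9, 13.3 and 17.0 RPKM in PH, and 6.52, 6.24 and 6.71 RPKM in LG. *Tsp86D* (FBgn0037848, chromosome arm 3R, bases 10868708 to 10870555) was at 9.98, 10.9 and 10.3 RPKM in AD, 19.7, 19.2 and 16.8 RPKM in PH, and 6.83, 10.9 and 8.59 RPKM in LG. Both were highest in PH in every sample, and AD and LG overlapped for *Tsp86D* only. *Tsp3A* was lower in AD than in PH (-1.42 ± 0.20, limma, adjusted p = 0.00041), a call that held when any single sample was left out. Between PH and LG its change of 0.997 ± 0.193 lay just under the threshold of 1 (adjusted p = 0.0065).

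*Tsp86D* was higher in PH than in LG (1.02 ± 0.20, limma, adjusted p = 0.0072), a call lost when any single PH sample, LG replicate 1 or LG replicate 3 was left out (adjusted p = 0.020 to 0.035). Its change between AD and PH of -0.78 ± 0.14 had an adjusted p of 0.0016 and was under the threshold of 1. Neither gene passed the test in AD against LG, with -0.43 ± 0.21 for *Tsp3A* (95% interval -0.91 to 0.05, adjusted p = 0.13) and 0.24 ± 0.21 for *Tsp86D* (95% interval -0.24 to 0.72, adjusted p = 0.37).

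*Tsp26A* (FBgn0031760, chromosome arm 2L, bases 6000228 to 6003738), the remaining TspanC8 member, was highest in AD instead. Its level was 4.92, 2.62 and 2.79 RPKM in AD, 0.78, 1.499 and 1.03 RPKM in PH, and 0.72, 0.55 and 0.18 RPKM in LG. No pair of groups overlapped. It was higher in AD than in LG (1.56 ± 0.29, limma, adjusted p = 0.0033), a call lost without AD replicate 1 (adjusted p = 0.011) or LG replicate 3 (adjusted p = 0.017), while the change of 1.06 ± 0.28 between AD and PH missed the call (adjusted p = 0.01004). *Tsp26A* shares 165 bases, 5.45% of its exons, with *Gal* on the opposite strand, which averaged 12.7 RPKM in AD, against 107 RPKM in PH and 3.95 RPKM in LG, and whether reads were counted by strand is not given in the sources used here.

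The partner gene *kuz* was at 24.9, 24.9 and 30.7 RPKM in AD, 29.4, 24.7 and 18.04 RPKM in PH, and 13.3, 23.1 and 13.2 RPKM in LG. The groups overlapped in each pair except AD and LG, and no comparison was called (limma, adjusted p = 0.47 in AD against PH, 0.040 in AD against LG and 0.17 in PH against LG). *N*, the Notch receptor, was at 29.5, 34.2 and 22.2 RPKM in AD, 8.63, 9.45 and 6.99 RPKM in PH, and 17.6, 21.3 and 17.7 RPKM in LG. It was higher in AD than in PH (1.65 ± 0.20, limma, adjusted p = 0.00014) and lower in PH than in LG (-1.09 ± 0.19, adjusted p = 0.0037) and was thus lowest in PH, where *Tsp3A* and *Tsp86D* were highest. Between AD and LG the change of *N* was 0.56 ± 0.19 (adjusted p = 0.044).

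*Tsp2A* (FBgn0024361, chromosome X, bases 1346553 to 1348143) is known from the smooth septate junctions of the gut, which it forms together with the products of *Ssk* and *mesh*. It was at 1.28, 0.96 and 5.83 RPKM in AD, 8.34, 5.26 and 3.76 RPKM in PH, and 0.48, 4.77 and 0.75 RPKM in LG. All groups overlapped, since AD replicate 3 and LG replicate 2 stood far above the other samples of their group. No comparison was called, with -1.06 ± 0.48 in AD against PH (limma, adjusted p = 0.088), 0.34 ± 0.64 in AD against LG (adjusted p = 0.69) and 1.40 ± 0.52 in PH against LG (adjusted p = 0.074). Single samples decided these values. Without AD replicate 3 the change between AD and PH was -1.63 and called (adjusted p = 0.0064), and without LG replicate 2 that between PH and LG was 2.02 and called (adjusted p = 0.0027).

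The 13 gut markers, mostly digestive proteases, summed to 0.20, 1.26 and 6.44 RPKM in AD, 4.11, 5.84 and 45.4 RPKM in PH, and 4.26, 20.3 and 0.19 RPKM in LG, and of these 6 were at 0 in all AD samples, 4 in all PH samples and 5 in all LG samples. The highest AD and LG samples of this list were those highest in *Tsp2A*, whereas in PH the order of the samples was reversed. *Ssk* was at 4.06, 1.84 and 3.70 RPKM in AD, 0, 2.02 and 0.58 RPKM in PH, and 1.49, 3.68 and 0.86 RPKM in LG, without a call in any comparison (limma, adjusted p = 0.029 in AD against PH, 0.29 in AD against LG and 0.29 in PH against LG). *mesh* reached at most 1.09 RPKM in any sample. The part of gut RNA in the level of *Tsp2A* was not tested.

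Integrins are the best known partners of tetraspanins in adhesion. Of the 7 integrin subunit genes, 5 were tested in AD against PH, 5 in AD against LG and 4 in PH against LG. The subunit gene *mys* was called lower in AD than in PH (-1.03 ± 0.11, limma, adjusted p = 8.0e-05) and higher in PH than in LG (1.01 ± 0.16, adjusted p = 0.0031). *scb* was called higher in AD than in LG (3.72 ± 0.36, adjusted p = 0.00012) and higher in PH than in LG (3.32 ± 0.36, adjusted p = 0.00057). No other subunit gene was called in any of the 3 comparisons. Both changes of *mys* were only just past the threshold of 1. The alternatives were examined for family members only, so how the calls of *mys*, *scb* and *N* depend on the processing was not examined.

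The 19 members that were neither called in a comparison nor reached a mean of 5 RPKM in a group contributed little. Of these, 12 had reads, with at most 2.11 RPKM in any sample (*Tsp42Ej* in PH replicate 1) and at most 68 reads over all 9 samples (*Tsp39D*). *Tsp42Ej*, known as *sunglasses* and needed for the degradation of rhodopsin in photoreceptors, was at 0.89, 0.30 and 0 RPKM in AD, 2.11, 0.81 and 0.23 RPKM in PH, and 0.75, 0 and 0.30 RPKM in LG. *Tsp68C*, whose overexpression is known to suppress an excess of hemocytes, had 6 reads in all, with 0 in every AD and LG sample and 0.10, 0.12 and 0.66 RPKM in PH. These values were too low to be tested, as were *Tsp42En* with 2 reads, *Tsp74F* with 5 and *Tsp42Eq* with 8 in all.

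No read was recovered in any sample for 7 members, namely *Tsp33B*, *Tsp42A*, *Tsp42Ec*, *Tsp42Eo*, *Tsp47F*, *Tsp66A* and *Tsp5D*. All exons of *Tsp42Eo* lie within *Tsp42Ep* on the opposite strand, and all exons of *Tsp66A* are shared with *CG42660* and *CG42661* on the same strand, so that reads on the shared exons cannot be assigned to 1 of these genes, for *Tsp42Eo* unless strand was used. For the other 5, the 3 reads that a count of 0 allows in a sample correspond to at most 0.47 to 0.97 RPKM in AD, against 0.37 to 0.76 RPKM in PH and 0.47 to 0.97 RPKM in LG, depending on the length of the gene. These limits cover counting error only. The bounds for *Tsp42Eh* and *Tsp42Ek* set the observed mean of the group with reads against such a limit, and do not cover the counting error of that mean.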

How the data were processed

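RNA from 3 AD, 3 PH and 3 LG samples had been made into amplified cDNA libraries. Per the paper and the submitters' processing notes, the authors trimmed reads with Trimmomatic 0.32, aligned them with HISAT2 2.1.0, counted them with HTSeq 0.5.4p5, calculated RPKM with Cufflinks 2.2.1 and compared groups with DESeq2 1.2.8. The deposited values are RPKM with decimal commas. Multiplied by the exon length in the BDGP6 annotation (17216 genes matched by identifier, 85 by symbol, 189 not), 97.8 to 98.0% of values, and all 197 member values above 0, became whole reads within 0.02. The library totals behind the deposited RPKM followed median-of-ratios size factors, not the total reads, so samples are already scaled to each other. All 37 mitochondrial genes were at 0 in all samples.

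Each pair of groups was tested in limma 3.58.1 (R 4.3.3; lmFit, eBayes with trend) on log2(RPKM + 1), two-sided, with Benjamini-Hochberg adjustment over all genes tested. No count test was used for the main results. The fit was also run on simulated data with normally distributed noise. Only genes above a set mean level were changed there, so that run does not cover members near 1 RPKM. Tables were made with Python 3.11.15 and pandas 2.3.3.

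The alternatives were 2 other pseudocounts (0.1 and 5), dropping the filter or raising it to RPKM 5, other scalings, limma voom on recovered reads, a joint fit of the 9 samples, array weights, a replicate block and each replicate left out, with the tested genes kept. Values of each sample are given for members called in at least 1 comparison or with a mean of at least 5 RPKM in a group. The members and gene lists were chosen with earlier results of these data known.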

Additional observations from a re-analysis of the deposited data

How the results depend on the processing

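Each of the 25 calls kept its direction under all alternatives run for it, and 5 kept the call in all of them (4 of 11 in AD against PH, 1 of 8 in AD against LG, 0 of 6 in PH against LG). Between AD and PH, 3 members were called higher with a pseudocount of 5 and 3 with a filter at RPKM 5, and 3 were called lower with a pseudocount of 5, 3 without a filter and 3 with scaling to total recovered reads. Between AD and LG, the number called higher was 4 with a pseudocount of 5, 4 with a filter at RPKM 5, 4 with quantile normalization and 1 without a filter, and the number called lower was 2 with scaling to total recovered reads or to reads outside rRNA genes and 0 with a pseudocount of 5, a filter at RPKM 5 or no filter. Between PH and LG, the number called higher was 3 with scaling to total recovered reads and 0 without a filter, and the number called lower was 0 with a pseudocount of 5, a filter at RPKM 5 or no filter. Leaving out 1 replicate gave 4 to 6 called higher and 3 to 6 lower in AD against PH, 3 to 6 and 0 to 1 in AD against LG, and 2 to 6 and 0 to 1 in PH against LG. Wherever limma called 0 members in the alternatives above, 1 to 3 members were lower at an unadjusted p below 0.05, and 7 were higher in PH against LG without a filter, while limma voom called 1 lower in each of these comparisons and 7 higher in PH against LG. The filter at RPKM 5 leaves fewer members to test, and the cause of the other changes was not tested. With RPKM above 0 in all 3 samples as the threshold, 21 members were expressed in AD, 17 in PH and 16 in LG.

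Changes that were never called and turned their sign, all between AD and LG, were those of *lbm* with quantile normalization (-0.027), of *Tsp86D* (-0.0745) and *Tsp97E* (-0.0119) with scaling to reads outside rRNA genes, and of *Tsp2A* without AD replicate 3 (-0.22) or LG replicate 1 (-0.02), within a range of -0.22 to 0.95 over the fits that left out a replicate.

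The replicate numbers did not pair the samples, since the deviations of same-numbered samples correlated with r of -0.111 to 0.052. With a replicate block, 4 members were called higher and 0 lower between AD and LG, 6 and 5 between AD and PH, and 4 and 1 between PH and LG.

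Over all genes, 1773 were called higher and 1071 lower between AD and PH, as compared to 1457 and 1437 with quantile normalization. Between AD and LG the counts were 1553 and 805, as compared to 1252 and 1180 with quantile normalization, 1292 and 1168 with scaling to total reads, 1226 and 1324 with scaling to reads outside rRNA genes and 877 and 304 without a filter. Between PH and LG they were 541 and 466, as compared to 321 and 734 with scaling to total reads, 388 and 624 with scaling to reads outside rRNA genes and 76 and 61 without a filter. Quantile normalization moved the median of all genes by -0.24 in both AD comparisons, scaling to total reads by -0.21 in AD against LG and -0.31 in PH against LG, and scaling to reads outside rRNA genes by -0.11, -0.28 and -0.17 for AD against PH, AD against LG and PH against LG.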
